A study of Mus musculus with 10 samples.

Results

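Uterine RNA of mice that had met bisphenol A (BPA) only before birth was compared with uterine RNA of mice that had met estradiol (E2) only as adults. The comparison rests on 5 of the 10 bead arrays of the series, chosen by their titles: 3 arrays of BPA in utero with a vehicle injection (called BPA alone here) and 2 arrays of vehicle in utero with an E2 injection (E2 alone). All dams were CD-1 mice, an outbred stock, injected intraperitoneally with BPA at 5 mg/kg per day or with its DMSO vehicle over gestation days 9 to 21. All female offspring were ovariectomised at 6 weeks, so that both groups lacked their ovaries, and at 8 weeks received 300 ng of E2 or DMSO. The uterus was taken 6 h after the injection. Each array held RNA pooled within 1 litter, from 3 litters of BPA-exposed dams and 2 litters of vehicle-exposed dams, and a litter number shared between the exposures does not mean a shared litter. The remaining arrays are 2 of vehicle in utero with vehicle injection (the vehicle group, without either agent) and 3 of BPA in utero with E2. The BPA-exposed arrays lay on slide 2 and the vehicle-exposed arrays on slide 1. In utero exposure, adult injection and slide therefore all differ between BPA alone and E2 alone, and their parts in any difference cannot be told apart. Nothing in the labels says how many animals a pool held, and the p-values measure the spread between these arrays.

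E2 is the main ovarian estrogen. It enters uterine cells, binds the receptor encoded by Esr1, and the receptor then acts on chromatin to raise or lower target genes. In the rodent uterus an early phase brings transcription factors, growth factors, water uptake and a rise of the protein-making machinery, and a later phase brings epithelial growth and secretion of proteins such as lactoferrin. BPA is a plastics monomer and a weak ligand of the same receptor, and exposure of the fetus coincides with the time when the reproductive tract is laid down and its chromatin is patterned.

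Signals were given as normalized log2 intensity, on which a difference of 1 is a doubling. Levels of different probes were not compared, except to mark those at the top of the scale. Arrays were alike in brightness, with a median raw signal of 122 to 132 and 19723 to 21109 of 45281 probes detected. Pearson's r across all units tested averaged 0.993 between arrays of BPA alone, 0.992 between the arrays of E2 alone and 0.984 between the groups, a description across genes of arrays that share their probes. The uterine genes Hoxa10, Hoxa11, Hand2, Esr1, Pgr, the smooth muscle myosin gene Myh11 and the epithelial keratin gene Krt8 were detected on all 5 arrays, and none of these 7 differed between the groups by the test used below.

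Of 16272 units tested (12403 genes with a symbol and 3869 probes without one), 2512 differed between BPA alone and E2 alone at an adjusted p under 0.05 in limma's moderated test, which is 15.4%. BPA alone was higher for 1192 (7.33%) and lower for 1320 (8.11%). With each array scaled to its median in place of quantile normalization, 1234 were higher and 880 lower, so that the share of higher among all called moved from 47.5% to 58.4%. Only 247 (1.52%) also differed by at least 2-fold, 106 higher and 141 lower, and the median difference over all units was -0.01. Arrays were left out 1 at a time throughout, and the count rested on both arrays of E2 alone: 1100 units were called without its replicate 1 and 1188 without its replicate 2. The same fit called 5067 units between BPA alone and the vehicle group (31.1%) and 3643 between E2 alone and the vehicle group (22.4%). These comparisons share arrays with the one described here, so their values are given side by side only.

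**Figure D1:**
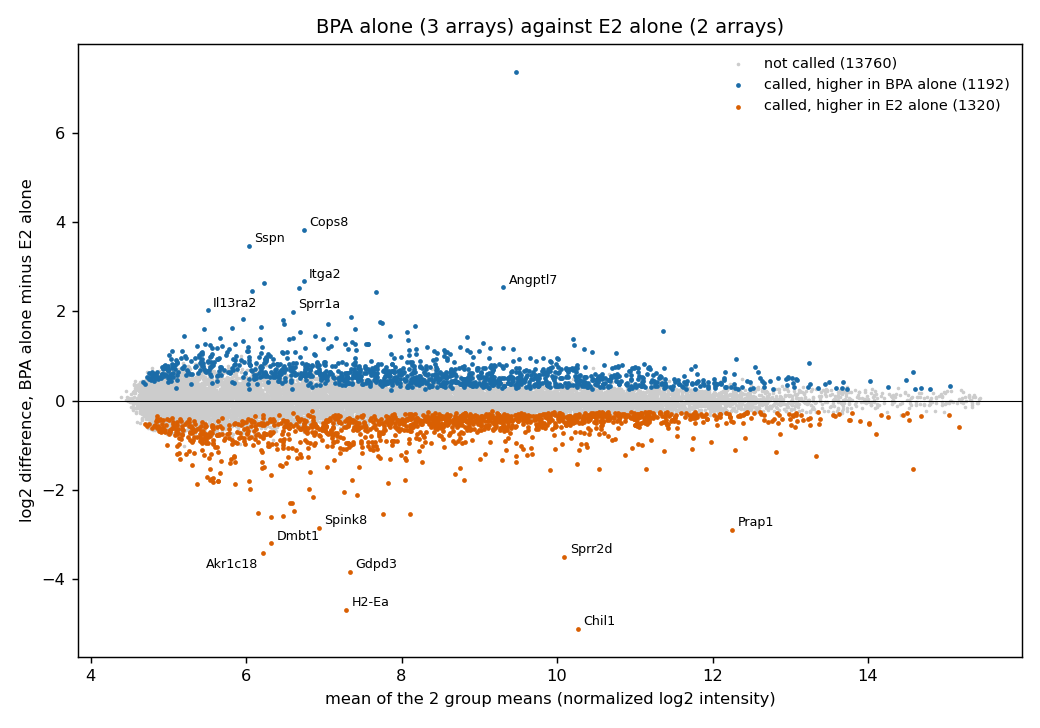
Each point is 1 of 16272 units tested, with the mean log2 intensity of both groups on the horizontal axis and the log2 difference, BPA alone minus E2 alone, on the vertical axis. Called units (blue, 1192 higher in BPA alone; orange, 1320 lower) lie mostly within 1 log2 unit of 0, and the named genes stand farthest from it, from Cops8 at 3.82 to Chil1 at -5.12; the highest point is a probe without a gene symbol.

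Genes higher in BPA alone were led by a signalosome subunit, muscle proteins and secreted or matrix proteins. Cops8, which encodes a subunit of the COP9 signalosome, read 8.83, 8.39 and 8.76 on the arrays of BPA alone and 4.92 and 4.76 on those of E2 alone. It was not detected above background in E2 alone, and the groups were far apart. The difference was 3.82 ± 0.14 (SE, adjusted p = 2.1e-06), or at least 11.5-fold, a bound that sets the mean of the brighter group against the dimmest detected signal, or the probe's own where higher, on each array of the other. In the vehicle group Cops8 read 7.92 and 7.84, so that E2 alone was the group standing apart. Sspn, which encodes sarcospan of the dystrophin complex, read 7.86, 7.56 and 7.88 in BPA alone against 4.31 and 4.29 in E2 alone, where it was not detected (at least 6.24-fold). For this gene the vehicle group, at 4.57 and 4.34, was as low as E2 alone, and BPA with E2 averaged 7.26.

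Angptl7, a secreted angiopoietin-like protein, read 10.57, 10.66 and 10.49 in BPA alone and 8.14 and 7.94 in E2 alone, a difference of 2.53 ± 0.10 (5.79-fold, adjusted p = 2.1e-06). BPA alone also stood above the vehicle group (8.49 and 8.43) and above BPA with E2 (mean 7.77). Itga2, the collagen-binding integrin alpha 2 chain, read 8.10, 7.94 and 8.18 against 5.11 and 5.70, and was detected on 1 of the 2 arrays of E2 alone. Il13ra2, a decoy receptor for interleukin 13, was detected in BPA alone only and passed the filter on dim probes through that group. It was at least 2.62-fold higher there than in E2 alone. Sprr1a, a cornified envelope precursor, was likewise highest in BPA alone, at 7.70, 7.53 and 7.57 in BPA alone against 4.99 and 6.23 in E2 alone, where the arrays were far apart from each other (difference 1.99 ± 0.31). Myl1 (1.74) and Tnnc2 (1.72), a myosin light chain and a troponin of fast skeletal muscle, Col22a1 (1.83), a collagen of tissue junctions, Mia (1.64), Psca (1.63), Csprs (1.72) and Tmprss11a (1.59) complete the 15 largest with Oasl1 and Pvalb, described with their groups. Another probe of Myl1 gave 0.53 and did not pass the test.

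Genes lower in BPA alone were led by secreted and epithelial proteins, and reached farther from 0 than those of the higher genes. Chil1, a secreted chitinase-like protein, read 7.74, 7.63 and 7.75 in BPA alone and 12.87 and 12.78 in E2 alone. The vehicle group read 13.68 and 13.54, close to E2 alone, and BPA with E2 averaged 6.60, so the BPA-exposed arrays as a whole were low. The difference was -5.12 ± 0.10, or 34.7-fold (adjusted p = 7.2e-08). H2-Ea, a class II histocompatibility chain, read 5.05, 4.79 and 4.97 against 9.63 and 9.63, was detected on 1 of the 3 arrays of BPA alone, and read 10.86 and 10.88 in the vehicle group. The labels give no histocompatibility genotype of these litters. Of the related class II genes, H2-Aa was also lower (-1.70) and not detected in BPA alone, whereas H2-Ab1 (-0.09) and H2-Eb1 (0.12), named after their values were seen, did not pass the test.

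Sprr2d, a small proline-rich protein of estrogen-exposed epithelium, read 8.24, 8.41 and 8.37 in BPA alone and 11.74 and 11.95 in E2 alone (11.3-fold). Prap1, a secreted uterine protein, read 10.79, 10.89 and 10.73 against 13.74 and 13.66 (7.42-fold). Both were highest in the vehicle group, at 13.45 and 13.48 for Sprr2d and 14.87 and 14.95 for Prap1, and lowest in BPA with E2. Gdpd3, a glycerophosphodiester phosphodiesterase, read 5.16, 5.22 and 5.88 against 9.24 and 9.27 , with 9.47 and 9.75 in the vehicle group and a mean of 5.26 in BPA with E2. Dmbt1, a mucin-like epithelial glycoprotein, was not detected in BPA alone and was at least 7.23-fold lower there.

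A second pattern among the lower genes had E2 alone above every other group. Akr1c18, the progesterone-inactivating 20-alpha-hydroxysteroid dehydrogenase, read 7.95 and 7.92 in E2 alone and was not detected in BPA alone (at least 7.29-fold lower), with 6.41 and 7.18 in the vehicle group and a mean of 4.43 in BPA with E2, where it was not detected either. Spink8, a Kazal-type protease inhibitor, read 8.43 and 8.30 in E2 alone against 5.63, 5.31 and 5.58 in BPA alone (7.25-fold), and the vehicle group at 5.98 and 6.22 was nearer to BPA alone. A2ml1, a protease inhibitor related to alpha-2-macroglobulin, read 9.35 and 9.40 against 6.82, 6.86 and 6.82. Stk32a (-2.55), Gzmd (-2.58), a granzyme, Cyp3a13 (-2.51), and Sectm1b (-2.05) were also highest in E2 alone. Muc13 (-2.30), a cell surface mucin, and Slc26a4 (-2.16), the anion exchanger pendrin, were highest in the vehicle group and complete the 15. Gzmd and Cyp3a13 were detected on 1 of the 3 arrays of BPA alone, and another probe of Stk32a gave -0.27 and did not pass the test.

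**Figure D2:**
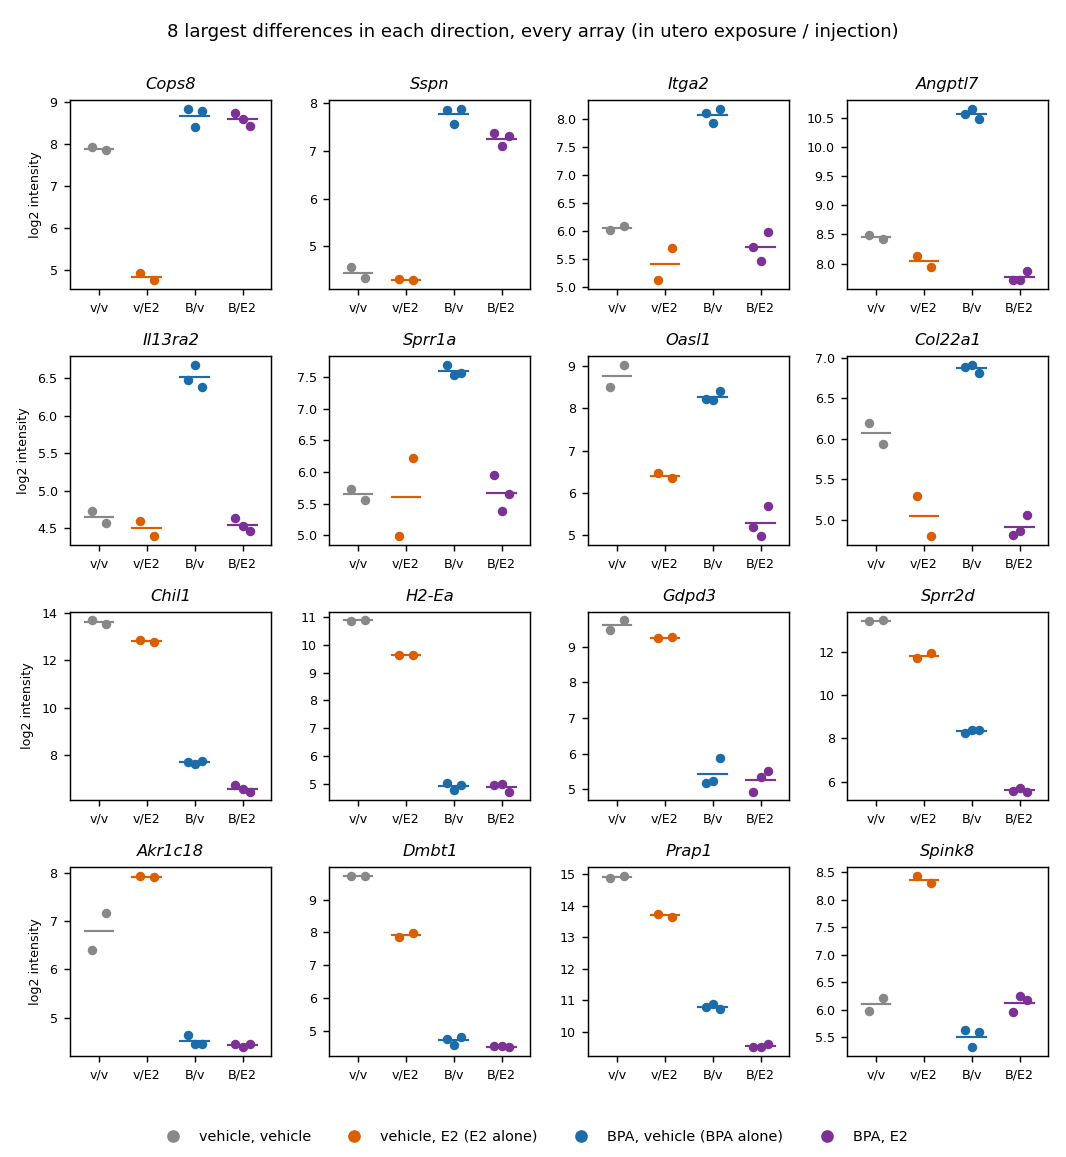
Normalized log2 intensity of the 8 genes with the largest difference in each direction, 1 point per array and a line at each group's mean, for vehicle/vehicle (v/v, 2 arrays), vehicle/E2 (v/E2, 2), BPA/vehicle (B/v, 3) and BPA/E2 (B/E2, 3). For Sspn all BPA-exposed arrays lie above all vehicle-exposed arrays and for Chil1, H2-Ea, Gdpd3, Sprr2d, Akr1c18, Dmbt1 and Prap1 all lie below them, while Angptl7 and Il13ra2 are highest in BPA alone and Akr1c18 and Spink8 in E2 alone; the vertical axes differ and do not start at 0.

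Among genes widely used to read an estrogen response, some stood at like levels in both groups and some did not. Pgr, the progesterone receptor gene and a direct target of the estrogen receptor, read 9.39, 9.23 and 9.20 in BPA alone and 9.28 and 9.58 in E2 alone. The groups overlapped, and both lay above the vehicle group at 8.32 and 8.20, by 1.01 in BPA alone and 1.17 in E2 alone. The difference between the groups was -0.16 ± 0.11 (adjusted p = 0.377), with a 95% interval from -0.41 to 0.09, and another probe gave 0.27. Greb1, an estrogen receptor cofactor that estrogen itself raises, read 10.34 on each array of BPA alone and 10.42 and 10.51 in E2 alone, against 9.48 and 9.40 in the vehicle group. Its interval ran from -0.30 to 0.05. Hoxa10, a homeobox gene of the uterine stroma, stood 1.04 above the vehicle group in BPA alone and 0.89 above it in E2 alone, with an interval of the difference from -0.15 to 0.46. Inmt, a methyltransferase, read 8.78, 8.78 and 8.82 in BPA alone and 8.93 and 9.05 in E2 alone, against 12.51 and 12.62 in the vehicle group. Its difference of -0.19 did not pass the test, although the arrays did not overlap, and another probe gave -0.52, also without passing. For Esr1 (0.37), Hoxa11 (0.41), Lif (0.05), Wnt4 (0.23), Fos (0.20), Ezh2 (0.25) and Dnmt1 (0.07) the test was not passed either, which does not show equality: the interval of Lif, the implantation cytokine, ran from -0.55 to 0.65.

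Other estrogen-related genes separated. Klk1, a tissue kallikrein, read 9.47, 9.53 and 9.65 in BPA alone, 8.53 and 8.37 in E2 alone, and 5.32 and 5.29 in the vehicle group. Both groups were thus far above the vehicle group, and BPA alone was the higher by 1.10 ± 0.10 (2.15-fold, adjusted p = 0.00027). Ret, a receptor tyrosine kinase, read 7.90, 7.91 and 7.79 in BPA alone, 9.58 and 9.44 in E2 alone, and 6.22 and 6.10 in the vehicle group. Here both groups were again above the vehicle group, and BPA alone was the lower by a log2 difference of -1.64 ± 0.10. Ltf, lactoferrin, read 13.83, 13.82 and 13.76 in BPA alone, 15.34 and 15.35 in E2 alone, and 15.39 and 15.41 in the vehicle group. BPA alone was the low group, at -1.54 ± 0.07, another probe gave -0.80 without passing the test, and Ltf ranked 9 of 16272 units in E2 alone, near the top of the scale. Aoc1, diamine oxidase, read 12.26, 12.26 and 12.20 against 13.33 and 13.44. Igf1 was higher by 0.41 (adjusted p = 0.00701), a call that was lost with the 5 arrays alone (adjusted p = 0.0502) and without replicate 2 of E2 alone (0.0546). Ihh, the epithelial hedgehog ligand, was at -0.92 (adjusted p = 0.0176), a call lost with the 5 arrays alone (0.0538) and without either array of E2 alone (0.0813 and 0.0868).

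**Figure D3:**
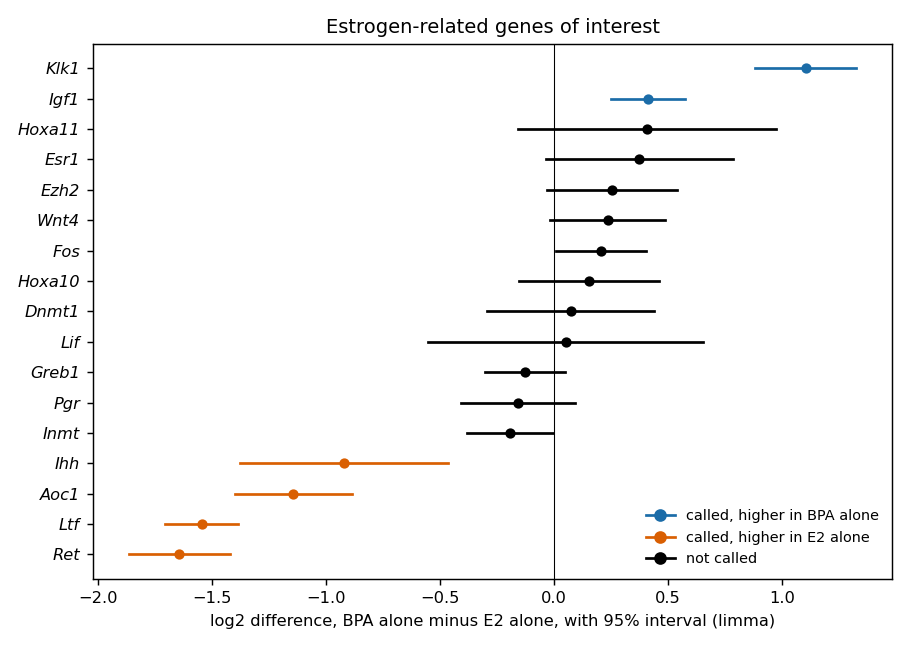
Log2 difference, BPA alone minus E2 alone, with its 95% limma interval for 17 genes of interest (points are estimates, horizontal lines intervals; blue called higher in BPA alone, orange called lower, black not called). Klk1 and Igf1 lie to the right of 0, Ret, Ltf, Aoc1 and Ihh to the left, and the intervals of Pgr, Greb1, Hoxa10 and Lif cross 0.

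Lists of estrogen-responsive genes went different ways. Of 25 measured early estrogen-induced genes, 8 were higher in BPA alone and 3 lower, with a list median of 0.15 against -0.01 over all units. Across all units, 7.33% were higher and 8.11% lower. The early count of 8 was 6 with the 5 arrays alone. The immediate early transcription factor Egr1 read 12.80, 12.74 and 12.75 in BPA alone, 11.85 and 11.83 in E2 alone, and 11.06 and 11.10 in the vehicle group, so BPA alone was the highest of the 3. Egr3 (1.09, with 0.23 at another probe that did not pass), the matricellular gene Ccn1 (0.98) and the cyclin gene Ccnd1 (0.60) were the others among the 4 with the smallest p. Late estrogen-induced secretory genes ran the other way. Of 20 measured, 10 were lower in BPA alone, or 7 with median scaling and 8 with the 5 arrays alone. Only Sprr2g (0.88) was higher, and the list median was -0.41. The mean level of this list per array was 10.01 to 10.05 in BPA alone, 10.58 to 10.63 in E2 alone and 10.82 to 10.85 in the vehicle group. Clca1, a secreted goblet cell protein, was at -1.23 ± 0.12. Lcn2, lipocalin 2, read 14.86, 14.88 and 14.90 against 15.46 and 15.48 and was the brightest unit in E2 alone, at the top of the scale, with a difference of -0.59. The small proline-rich and kallikrein genes form families with near-identical members, and their probes may read more than 1 of them. Of 19 measured epithelial markers, which share the cells of origin of these genes, 4 were higher (Krt19 0.74, Esrp1 0.74, Krt18 0.59 and Krt7 0.59) and 3 lower (at most 1 of them without any 1 of the 5 arrays or with median scaling), with a mean level of 9.74 to 9.76 in BPA alone and 9.64 to 9.67 in E2 alone; the part of cell composition was not tested. In such tissue RNA, fewer cells of a type and less RNA per cell cannot be told apart.

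The tissue kallikrein 1 family had 8 measured members, of which Klk1 and Klk1b26 (0.63) were higher and none lower; Klk1b26 lost its call without replicate 1 of E2 alone (adjusted p = 0.0863). The list stood high against the vehicle group in both, with medians of 2.93 for BPA alone and 2.63 for E2 alone. Among all units, 7.33% were higher in BPA alone than in E2 alone and 8.11% lower. Among 20 uterine patterning and implantation regulators, 5 were lower in BPA alone and none higher, but 1 was lower without either array of E2 alone or with the 5 arrays alone, and 3 without replicate 2 or replicate 3 of BPA alone, with median scaling or with no filter on dim probes. Ptch1, the hedgehog receptor that is itself a hedgehog target, read 7.61, 7.36 and 7.32 in BPA alone, 8.32 and 8.33 in E2 alone and 7.26 and 7.22 in the vehicle group, so that E2 alone stood apart; another probe gave -0.49 without passing. Gata2 (-0.38) and Wnt5a (-0.34) showed smaller differences, of which Wnt5a lost its call without any 1 of the 5 arrays. Other probes of Wnt5a gave -0.23 and 0.058, neither passing. None of 9 measured steroid receptors and cofactors was called in either direction.

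Endoplasmic reticulum chaperones, which fold secreted proteins, were called higher in BPA alone for 8 of 22 measured members, against 7.33% of all units. None was lower, and the list median was 0.26. The mean level of the list per array was 10.46 to 10.50 in BPA alone, 10.13 to 10.19 in E2 alone and 9.76 to 9.79 in the vehicle group. Hspa5, the chaperone BiP, read 6.92, 6.98 and 7.13 in BPA alone against 5.92 and 5.90 in E2 alone (2.14-fold, adjusted p = 0.00104). Creld2 read 11.66, 11.70 and 11.87 against 10.90 and 11.14, and Sdf2l1 read 9.67, 9.69 and 9.63 against 8.76 and 8.95. In each of these 3 the vehicle group was lowest and BPA alone above E2 alone. Pdia6, a disulfide isomerase, was higher by 0.55. The count of 8 was 13 with a variance trend and robust estimation, and 5 with the 5 arrays alone and without replicate 2 of E2 alone, replicate 2 of BPA alone or replicate 3 of BPA alone.

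Promoters of these genes are shown because a motif of the unfolded protein response recurs in them. The endoplasmic reticulum stress element, searched as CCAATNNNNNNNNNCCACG on both strands, was found in 5 of the 8 members called higher (Hspa5, Pdia6, Creld2, Dnajc3 and Syvn1), in 2 of 11 measured members not called, and in 37 of 27025 mouse promoters (0.137%). Every such match also holds the shorter CCAAT box, which alone is in 41.1% of promoters. The sequences are RefSeq promoters of the GRCm38.p6 build, from 250 bases before to 50 bases after the start of the gene, written 5′ to 3′ on the gene's strand with the match in capitals. Hspa5 lies at chr2:34771840-34772139 on the plus strand, with the match from base -65. Pdia6 lies at chr12:17266339-17266638 on the plus strand, with the match from base -98. Creld2 lies at chr15:88819396-88819695 on the plus strand, with the match, in the reverse orientation, from base -126. Dnajc3, whose difference was 0.39 and which was named with Syvn1 after the motif was found, lies at chr14:118937682-118937981 on the plus strand, with the match from base -105. A match describes letters and not a bound site.
Hspa5: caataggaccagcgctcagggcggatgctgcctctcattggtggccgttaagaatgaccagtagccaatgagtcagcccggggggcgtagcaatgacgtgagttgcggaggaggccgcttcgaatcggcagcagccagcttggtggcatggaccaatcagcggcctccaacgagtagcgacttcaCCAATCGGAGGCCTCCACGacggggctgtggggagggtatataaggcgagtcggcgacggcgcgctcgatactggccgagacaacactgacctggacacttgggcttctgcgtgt
Pdia6: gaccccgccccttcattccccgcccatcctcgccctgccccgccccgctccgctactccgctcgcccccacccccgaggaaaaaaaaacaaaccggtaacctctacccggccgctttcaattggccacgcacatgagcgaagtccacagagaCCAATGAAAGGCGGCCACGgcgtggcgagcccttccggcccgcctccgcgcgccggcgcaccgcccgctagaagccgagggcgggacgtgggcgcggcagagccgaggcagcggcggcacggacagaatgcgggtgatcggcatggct
Creld2: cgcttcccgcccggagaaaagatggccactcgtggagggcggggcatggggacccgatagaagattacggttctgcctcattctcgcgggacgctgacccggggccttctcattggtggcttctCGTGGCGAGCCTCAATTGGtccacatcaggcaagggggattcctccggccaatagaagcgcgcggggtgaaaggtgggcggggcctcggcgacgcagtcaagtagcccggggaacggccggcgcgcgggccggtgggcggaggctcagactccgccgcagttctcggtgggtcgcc
Dnajc3: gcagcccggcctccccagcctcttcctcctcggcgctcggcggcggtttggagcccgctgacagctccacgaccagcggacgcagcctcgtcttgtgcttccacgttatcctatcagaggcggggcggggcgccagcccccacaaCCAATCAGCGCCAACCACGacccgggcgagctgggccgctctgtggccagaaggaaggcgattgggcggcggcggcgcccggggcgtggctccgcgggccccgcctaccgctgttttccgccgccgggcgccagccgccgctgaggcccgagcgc

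Neighbouring stress and synthesis programmes had less stable calls or lower shares called. ATF4 targets (47.1% called in either direction) and cytosolic chaperones (41.7%) exceeded the endoplasmic reticulum chaperones (36.4%). Ribosome biogenesis factors (20.8%), aminoacyl-tRNA synthetases (21.1%) and cholesterol synthesis enzymes (6.25%) lay below them. Of all units, 15.4% were called. Of 17 ATF4 target and serine synthesis genes, 7 were higher and 1 lower, with a median of 0.37, but 2 were higher without replicate 2 of E2 alone. Asns, asparagine synthetase, read 11.54, 11.45 and 11.59 in BPA alone, 10.94 and 10.97 in E2 alone and 9.94 and 9.93 in the vehicle group. Cytosolic chaperones were higher for 8 of 24 and lower for 2, with 5 higher with the 5 arrays alone or without replicate 1 of BPA alone, 4 without replicate 2 of E2 alone, 3 without replicate 3 of BPA alone and 2 without replicate 1 of E2 alone. Hsph1, a large heat shock protein, was higher by 0.74 and Hspa1a by 0.92, the latter with 0.21 at another probe that did not pass, while the small heat shock protein gene Cryab was at -0.91. Ribosome biogenesis factors stood above the vehicle group in both, with medians of 0.82 in BPA alone and 0.55 in E2 alone; 5 of 24 were higher in BPA alone, led by Pes1 (0.66) and Ncl, nucleolin (0.73), and 2 without either array of E2 alone, without replicate 3 of BPA alone or with no filter on dim probes (3 without replicate 1 of BPA alone), against 11 in the authors' deposited values. Of 19 aminoacyl-tRNA synthetases 3 were higher and 1 lower, with 0 higher without replicate 1 of E2 alone, 1 without replicate 2 or replicate 3 of BPA alone and 6 in the authors' deposited values, and of 16 cholesterol synthesis enzymes only Msmo1 (0.78) was called.

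Interferon-stimulated genes, the antiviral genes that interferon raises through STAT factors, were higher in BPA alone for 13 of 23 measured members. Of all units, 7.33% were higher. Oas1a, counted in the 13, was detected in BPA alone only and passed the filter on dim probes through that group. Irf9, a subunit of the interferon-activated factor itself, was the 1 called lower, at -0.98 ± 0.08. The list median was 0.52, and the mean level per array was 8.56 to 8.69 in BPA alone, 8.04 to 8.09 in E2 alone and 9.19 to 9.24 in the vehicle group. Isg15, a ubiquitin-like modifier, read 9.67, 9.53 and 9.45 in BPA alone, 8.04 and 8.21 in E2 alone and 10.05 and 9.75 in the vehicle group (2.68-fold between BPA alone and E2 alone, adjusted p = 0.000325). Oasl1, an oligoadenylate synthetase-like protein, read 8.22, 8.20 and 8.42 against 6.48 and 6.35, with 8.51 and 9.04 in the vehicle group, and Oasl2 was higher by 1.37. For these genes the vehicle group was the highest, E2 alone the lowest of the 3, and BPA alone lay between. BPA with E2 lay below E2 alone for Isg15, at a mean of 7.50. Oasl1 and Oasl2 are related in sequence, and their probes may read both. Without either array of E2 alone, 10 of the 23 were higher.

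Interferon-stimulated gene promoters are shown beside these values. The interferon-stimulated response element, searched as GAAANNGAAA on both strands, was found in 6 of the 10 members called higher whose promoter was in the RefSeq table, in 4 of 7 measured members not called, and in 1079 of 27025 promoters (3.99%). It was thus about as frequent among the members that were not called, and the 6 include Oas1a. Isg15 lies at chr4:156200769-156201068 on the minus strand, with overlapping matches from bases -78, -72 and -66. Ifit3, an interferon-induced tetratricopeptide protein higher by 1.06 in BPA alone and named after its values were seen, lies at chr19:34583279-34583578 on the plus strand, with matches from bases -156 and -122.
Isg15: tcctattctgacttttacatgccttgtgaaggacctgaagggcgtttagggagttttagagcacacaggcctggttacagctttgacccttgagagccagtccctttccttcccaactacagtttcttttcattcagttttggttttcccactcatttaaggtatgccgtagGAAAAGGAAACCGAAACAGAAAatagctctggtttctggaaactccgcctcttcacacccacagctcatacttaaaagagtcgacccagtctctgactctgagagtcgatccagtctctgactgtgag
Ifit3: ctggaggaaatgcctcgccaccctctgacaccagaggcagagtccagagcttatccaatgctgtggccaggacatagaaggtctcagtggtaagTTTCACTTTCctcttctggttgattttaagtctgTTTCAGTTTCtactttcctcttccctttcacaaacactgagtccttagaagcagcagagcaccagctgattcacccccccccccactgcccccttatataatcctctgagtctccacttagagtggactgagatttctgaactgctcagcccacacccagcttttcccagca

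Antigen presentation genes did not move one way. Of 15 measured, Tap1, Psmb8, Psmb9 and H2-K1 were higher and H2-Aa and H2-D1 lower, with a median of 0.05. Across all units, 7.33% were higher and 8.11% lower. Psmb9, an immunoproteasome subunit, was higher by 0.50. H2-Aa was not detected in BPA alone and was at least 2.44-fold lower. Probes of the class I genes disagreed in sign: H2-K1 gave 0.69 at its brightest probe and -0.59 at the other. Of 4 probes of H2-D1, 3 were lower (-0.84, -0.67 and -0.75) and 1 was higher (1.52), and each passed the test. These genes are polymorphic and alike in sequence, so their directions are uncertain. Only 2 members were higher without either array of E2 alone, and 1 with the 5 arrays alone.

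Markers of several immune cell types were lower in BPA alone. Mast cell markers were lower for 7 of 9 measured and higher for none, with a median of -0.71. Of all units, 8.11% were lower. Gata2, counted above among the patterning regulators, is also 1 of the 7. Tpsab1, a mast cell tryptase, read 5.83, 5.68 and 5.94 in BPA alone, 7.19 and 7.24 in E2 alone and 6.31 and 6.32 in the vehicle group (2.64-fold lower in BPA alone than in E2 alone, adjusted p = 5.8e-05). Cpa3, mast cell carboxypeptidase, read 5.92, 5.68 and 5.75 against 6.78 and 6.84, with -0.54 at another probe that did not pass, and Hdc, which makes histamine, was at -0.52. Kit, the mast cell growth factor receptor, which other uterine cells also express, was at -0.02. The mean level of the list per array was 6.95 to 7.04 in BPA alone, 7.69 to 7.71 in E2 alone and 7.41 to 7.42 in the vehicle group. The 7 fell to 3 without either array of E2 alone and to 4 with the 5 arrays alone, without replicate 1 of BPA alone or without replicate 3 of BPA alone.

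Neutrophil and eosinophil markers were lower for 4 of 13 measured, and no array left out brought this below 4. Across all units, 8.11% were lower and 7.33% higher. S100a8 read 8.64, 8.66 and 8.58 in BPA alone, 10.02 and 9.89 in E2 alone and 11.67 and 11.71 in the vehicle group, and its partner in calprotectin, S100a9, read 6.50, 6.11 and 6.29 against 7.69 and 7.87 (2.80-fold). Retnlg was at -1.08. The fourth was Lcn2, counted above among the secretory genes, which uterine epithelium also expresses. The vehicle group was highest for these, and Ly6g and Cxcr2, which define neutrophils, were not among the units tested. Of 19 macrophage and dendritic cell markers, 8 were lower and 1 higher (Adgre1, 0.36, a call lost with the 5 arrays alone, without replicate 1 of E2 alone and without each array of BPA alone), with a median of -0.33, but 3 were lower without replicate 1 of E2 alone, 4 without its replicate 2, with the 5 arrays alone or with median scaling, and 5 without replicate 2 or replicate 3 of BPA alone. Fcgr3, an Fc receptor, read 8.84, 8.84 and 8.74 against 9.33 and 9.43. Lyz2 was at -0.62 and Lyz1 at -0.52, 2 lysozyme genes alike enough for probes to read both, and other probes gave 0.27 for Lyz2 and -0.43 and -0.00041 for Lyz1, none of them passing. The mean level of the macrophage list was 8.49 to 8.55 in BPA alone, 8.71 to 8.81 in E2 alone and 9.49 to 9.51 in the vehicle group. None of 7 lymphocyte markers was called.

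**Figure D4:**
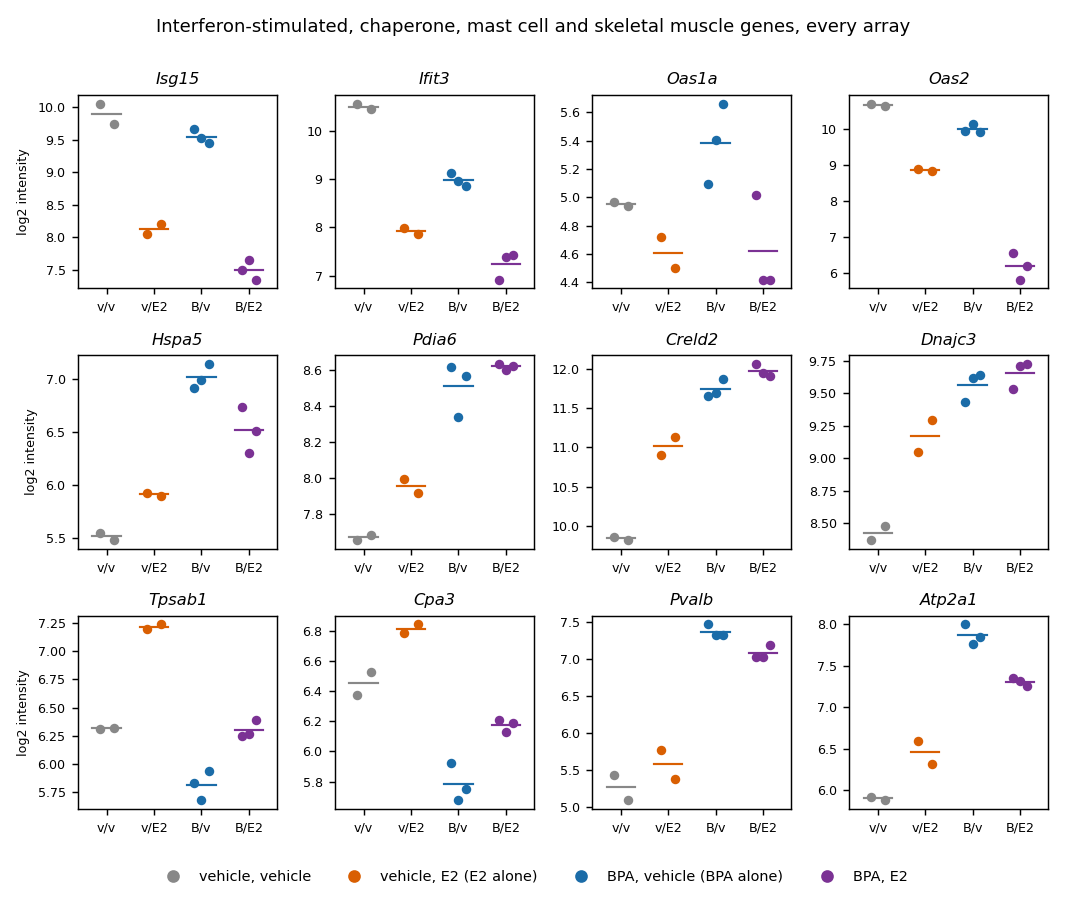
Normalized log2 intensity on every array, with a line at each group's mean, of 12 genes picked after their values were seen: interferon-stimulated (top row), chaperone (middle row), mast cell and skeletal muscle genes (bottom row), groups as v/v, v/E2, B/v and B/E2. Isg15 is lower in v/E2 than in B/v, Hspa5 is lowest in v/v, next in v/E2 and highest in B/v, Tpsab1 is highest in v/E2, and Pvalb and Atp2a1 are high on all 6 BPA-exposed arrays; the vertical axes differ and do not start at 0.

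Skeletal muscle markers were higher in BPA alone for 6 of 8 measured, against 7.33% of all units. None was lower, and the list median was 0.85. The 6 became 5 with the 5 arrays alone. Pvalb, the calcium buffer parvalbumin of fast fibres, read 7.47, 7.33 and 7.32 in BPA alone, 5.78 and 5.39 in E2 alone and 5.44 and 5.10 in the vehicle group (3.47-fold, adjusted p = 0.00016). Atp2a1, the calcium pump of fast fibres, read 8.00, 7.76 and 7.85 against 6.60 and 6.32. BPA with E2 averaged 7.09 for Pvalb and 7.30 for Atp2a1, so that all 6 BPA-exposed arrays were above the 4 vehicle-exposed arrays. Mylpf (0.84) and Acta1 (0.51) were also higher. The mean level of the list was 7.69 to 7.80 in BPA alone, 6.77 to 6.87 in E2 alone and 6.79 to 6.93 in the vehicle group, and the fast and slow myosin heavy chain genes Myh1, Myh2, Myh4 and Myh7 were not among the units tested. Tnnc2 and Myl1, among the largest differences above, belong to the same tissue; the share of skeletal muscle in each pool was not tested.

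Adipocyte markers were higher for 5 of 9 measured and lower for 1 (Lpl, -0.54), against 7.33% and 8.11% of all units. With the 5 arrays alone, 4 were higher. Scd1, a fatty acid desaturase, read 11.28, 11.22 and 11.35 in BPA alone, 10.28 and 10.16 in E2 alone and 10.68 and 10.67 in the vehicle group. Car3 read 10.47, 10.48 and 10.47 against 9.61 and 9.44, and the adipokine gene Adipoq 10.28, 10.37 and 10.42 against 9.44 and 9.56. For Car3 and Adipoq the vehicle group was highest (11.02 and 10.79; 10.65 and 10.82), unlike for Scd1. The mean level of the list was 9.07 to 9.12 in BPA alone, 8.78 to 8.79 in E2 alone and 9.41 to 9.43 in the vehicle group, and 3 were higher without replicate 2 of E2 alone. The share of fat in each sample was not tested.

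Of measured smooth muscle, endothelial and stromal fibroblast markers, 20%, 12.5% and 16.7% were called in either direction. This compares with 15.4% of all units and 36.8% of the epithelial markers described above. Smooth muscle markers were higher for 4 of 20 and lower for none (2 higher with the 5 arrays alone), with a median of 0.08. The intermediate filament gene Synm (1.18) and the caldesmon gene Cald1 (0.99) led them. Of 16 endothelial markers Eng (0.39) was higher and Emcn (-0.57) lower, and of 12 stromal fibroblast markers Thy1 (-0.79) and Lum were lower, the latter by -0.33 with 0.11 at another probe. Of the markers of other tissues, 2 of 4 blood genes were higher (Hba-a1 0.32; Hbb-b2 1.27), but 1 with the 5 arrays alone or without any other array and 0 without replicate 1 of E2 alone, as were Rsph1 of ciliated cells (1.15, 1 of 5) and Krt14 (0.95, 1 of 8 mesothelial and urinary tract genes). Gfap of glia was lower (-0.49, 1 of 3), a call lost with the 5 arrays alone (adjusted p = 0.0974), with median scaling and without replicate 2 of E2 alone or replicate 1 or replicate 2 of BPA alone, and neither of 2 ovarian genes was called. The parts of these other cells in the results were not tested.

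Extracellular matrix and crosslinking genes were called both ways, 4 higher and 6 lower of 25 measured, with a median of 0.00. The shares of all units were 7.33% higher and 8.11% lower. Tnc, the matrix glycoprotein tenascin C, read 9.07, 9.10 and 9.06 in BPA alone, 10.37 and 10.16 in E2 alone and 9.93 and 9.82 in the vehicle group, so that BPA alone was the low group. Thbs2, thrombospondin 2, was at -1.06 ± 0.08 and Mfap4, a microfibril protein, at -0.35, whereas the fibrillar collagen gene Col1a2 was at 0.68, a call lost with the 5 arrays alone (adjusted p = 0.0553). The calls of this list rested on E2 alone: without its replicate 1 none were higher and 2 lower, and without its replicate 2 none were higher and 3 lower. Higher calls numbered 2 without replicate 3 of BPA alone, and with the 5 arrays alone there were 1 higher and 2 lower. Matrix metalloproteinases and their inhibitors were lower for 4 of 16 (2 without replicate 1 of E2 alone), among them the gelatinase gene Mmp2 (-0.55) and Timp2 (-0.48), which encodes an inhibitor of these enzymes.

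Of 18 aquaporins and epithelial ion transport genes, 6 were lower in BPA alone and 2 higher, and 3 were lower without replicate 1 of E2 alone. The shares of all units were 7.33% higher and 8.11% lower. Slc26a4 read 5.63, 5.71 and 6.02 in BPA alone, 7.81 and 8.08 in E2 alone and 10.47 and 10.61 in the vehicle group, so that the order was the vehicle group, E2 alone, then BPA alone. Gabrp, a GABA receptor subunit of epithelia, was in contrast higher by 0.75. In the insulin-like growth factor system, 2 of 12 were higher and 3 lower (1 without replicate 1 of E2 alone, 0 without its replicate 2). Igfbp5, which binds the factors in tissue, read 13.62, 13.72 and 13.64 in BPA alone, 12.74 and 12.89 in E2 alone and 13.81 and 13.68 in the vehicle group, so that E2 alone was the low group and BPA alone overlapped the vehicle group. In the Wnt pathway 2 of 29 were higher and 3 lower, shares near those of all units. Prostaglandin genes gave 1 call in 12 (8.33%), Ptges3 (0.50), against 15.4% of all units called.

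Genes of DNA replication and cell division were called in 1 direction only. G1/S and DNA replication genes were higher in BPA alone for 7 of 28 and lower for none, with a median of 0.25. Among all units, 7.33% were higher and 8.11% lower. The 7 became 11 with a variance trend and robust estimation and 5 with the 5 arrays alone. They became 5 without replicate 1 or replicate 3 of BPA alone and 6 without its replicate 2. Pold1, the catalytic subunit of DNA polymerase delta, read 9.34, 9.47 and 9.44 in BPA alone, 8.54 and 8.32 in E2 alone and 8.62 and 8.59 in the vehicle group, and Pola2, of the primase complex, was higher by 0.76 ± 0.10. Mitosis genes were higher for 5 of 17, led by Bub1b (0.54, with 0.27 at another probe that did not pass), with a median of 0.17. That count was 1 without replicate 2 of E2 alone or with the 5 arrays alone, and 3 without any other 1 of the 5 arrays. Relative to the vehicle group the list medians were 0.02 in BPA alone and -0.20 in E2 alone for replication genes and 0.00 and -0.18 for mitosis genes.

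Among metabolic lists, 31.25% of glycolysis genes and 33.3% of estrogen and xenobiotic metabolism genes were called, against 15.4% of all units. Oxidative phosphorylation subunits were higher for 4 of 21, but for 0 without replicate 1 of E2 alone, 1 without its replicate 2, without replicate 1 of BPA alone or with the 5 arrays alone, and 2 without replicate 3 of BPA alone. Glycolysis genes were higher for 3 (1 without either array of E2 alone) and lower for 2 of 16, with Pfkl at 0.54 and Eno2, a neuronal enolase, at -0.65. Genes of estrogen and xenobiotic metabolism were higher for 4 of 18 and lower for 2, with the steroid and drug oxidase gene Cyp3a13 at -2.51; the 4 fell to 0 without replicate 1 of E2 alone, to 1 without its replicate 2 and to 2 without replicate 3 of BPA alone.

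Chromatin genes, which are of interest because fetal BPA exposure has been linked to DNA methylation and Polycomb marks, and imprinted genes differed by list: 9.09% of Polycomb and histone methylation genes, 28.6% of DNA methylation genes and 30.8% of imprinted genes were called, against 15.4% of all units. Of 22 Polycomb and histone methylation genes 1 was called in each direction, and Ezh2, the Polycomb methyltransferase, read 8.05, 8.16 and 7.88 in BPA alone and 7.70 and 7.85 in E2 alone without passing the test. Of 14 DNA methylation genes 2 were higher and 2 lower. Uhrf1, which recruits the maintenance methyltransferase to replicated DNA, was higher by 0.70 ± 0.09, and the cytidine deaminase gene Apobec1 was at -0.61. Dnmt1 was at 0.07 and turned to -0.06 without replicate 3 of BPA alone. Of 13 imprinted genes, which are expressed from 1 parental allele, 3 were higher (Gnas 0.50, Peg3 0.65 and Mest 0.73) and Cdkn1c, a cell cycle inhibitor, was lower at -0.41. Cdkn1c lost its call with the 5 arrays alone (adjusted p = 0.0527).

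**Figure D5:**
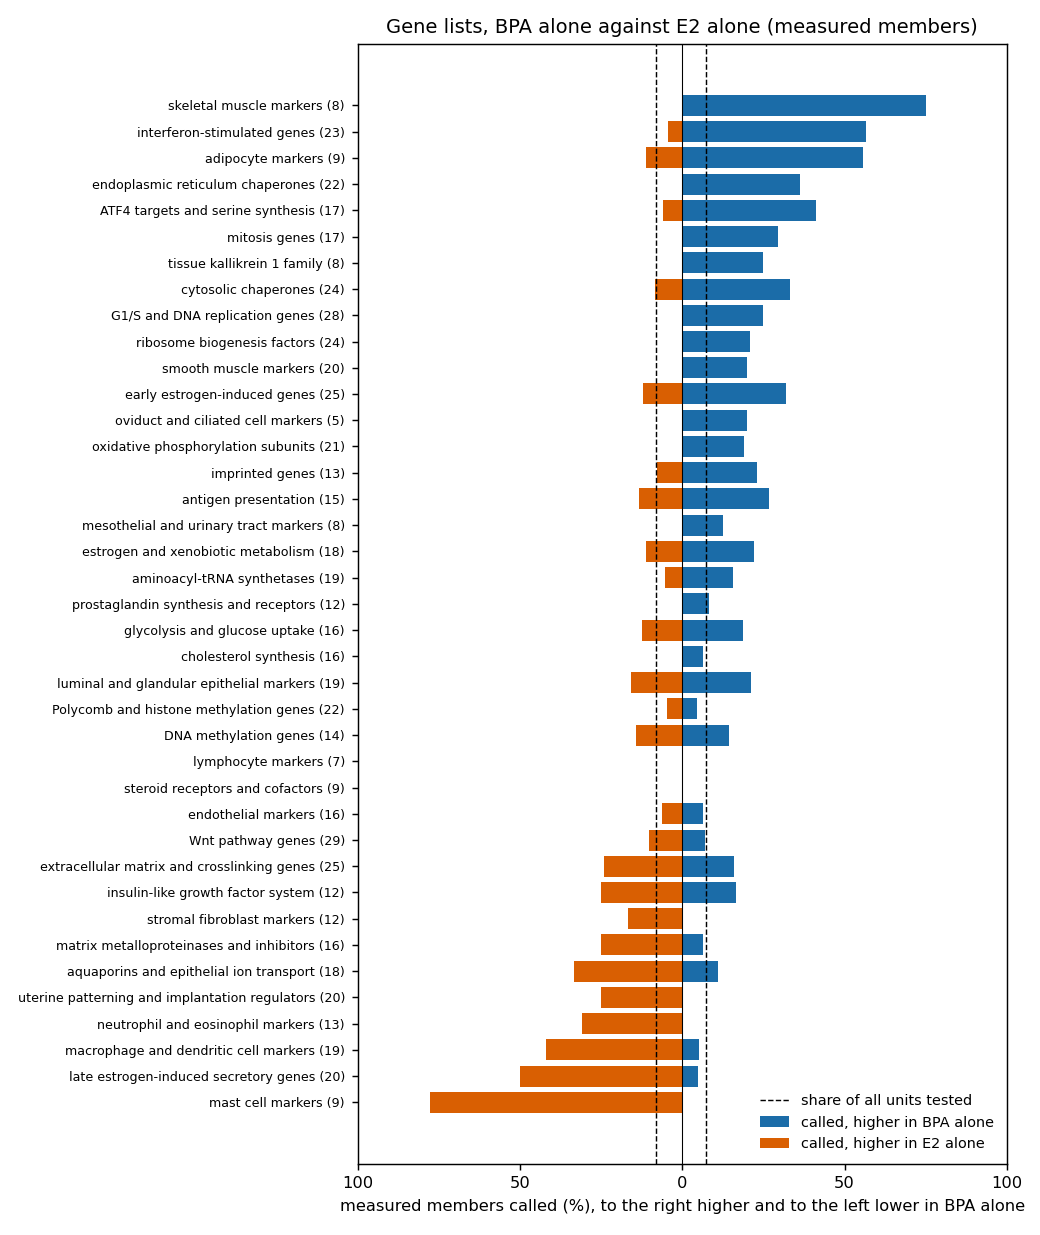
Share of measured members called higher (blue, to the right) and lower (orange, to the left) in BPA alone than in E2 alone, in percent. Gene lists with at least 5 measured members are drawn, with the number measured in brackets. The blood, nerve and glia, and ovarian lists had fewer and are left out. Dashed lines mark the shares over all units, 7.33% higher and 8.11% lower. Skeletal muscle, interferon-stimulated and adipocyte lists reach farthest to the right and mast cell, late secretory and macrophage lists farthest to the left, and lists of under 10 members give coarse shares.

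Some probes were detected in only 1 of the groups. On all 3 arrays of BPA alone but on neither array of E2 alone, 298 of 45281 probes were detected, and 182 probes showed the reverse. Units were counted separately from probes, with 168 of the first kind and 132 of the reverse. These units need not hold all of those probes. Most of the units lay near the detection limit: of the 185 with a gene symbol among both sets, 103 did not differ by the test. Cops8, Sspn, Il13ra2 and Oas1a were the named genes of the first kind. Akr1c18, Dmbt1, H2-Aa and Ahrr, a repressor of the dioxin receptor (at least 1.41-fold lower in BPA alone), were those of the second. Kap, an androgen-regulated kidney protein in mice, named after its values were seen, read 6.29 and 6.79 in E2 alone and was not detected in BPA alone (at least 2.77-fold lower).

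For many genes the data bound the difference. The 95% interval of BPA alone minus E2 alone lay within 0.5 log2 of 0 on both sides for 7139 of 16272 units (43.9%), of which 188 were nevertheless called. Greb1, Pgr and Inmt, each at its brightest probe, lie within these bounds, as does Hoxa10. The array values of the groups did not overlap for 7554 units (46.4%), so that non-overlap alone, with 2 arrays against 3, is common here.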

How the data were processed

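RNA of mouse uterus was measured on 10 single-colour Illumina bead arrays, extracted with TRIzol and RNeasy columns and labelled as biotinylated cRNA, per the labels' protocols. The non-normalized file holds, per the file headers, each probe's intensity on a linear scale and its detection p-value, as deposited; the scanner and any earlier background step are not given in the sources used here. The authors' deposited table of processed intensity served only as an alternative. No column belonged to a sample outside the series.

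The neqc function of limma 3.58.1, run in R 4.3.3, subtracted a background modelled on the detection p-values, added an offset of 16, and gave quantile-normalized log2 values. Probes with a detection p under 0.05 on at least 2 of 10 arrays were kept, 23942 of 45281. Gene symbols came from the platform annotation: 34885 probes had 1 symbol, 18 several and 10378 none. A symbol was represented by its brightest probe, and unnamed probes stood for themselves. One limma model of 4 group means over all 10 arrays gave moderated two-sided tests, adjusted by Benjamini-Hochberg over all 16272 units. Precision is set by the 2 and 3 arrays and by signal over background.

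The 42 lists of 824 genes and the comparison itself were chosen with earlier results of these data known, and lists are described by counts and medians, without a set test. Named are the 15 largest called differences in each direction with an informative symbol and groups that do not overlap, the called members of each list ranked by p, at most 4 a list, and 17 measured genes of interest; other names are marked as picked after their values were seen, and beside counts of list members those called are named for illustration. A further one, Esr2, did not pass the filter. Promoters were found for 143 of 181 genes looked up.

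Litter numbers shared between the compared groups mark different litters; same-numbered arrays deviated from their group means with r of -0.0055 and -0.0363 across genes. With 1 exposure per slide, no fit could hold slide as a block. Alternatives were no background correction, cyclic loess, median scaling, the authors' table, other filters on dim probes, array weights, all probes tested singly, robust estimation with a variance trend, the 5 arrays alone, litter as a block, and leaving out each of the 5 arrays. In simulated data with 16272 genes, 67 were set to differ by log2 0.5, 67 by 1 and 66 by 2. This comparison recovered 32.8%, 71.6% and 95.5% of them, and 4.32% of calls were false. The simulated noise was independent between arrays, without slide or litter effects. Far fewer genes were set to differ than were called in the data, so these rates need not carry over. Figures were drawn with matplotlib 3.10.9.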

Additional observations from a re-analysis of the deposited data

Results flagged for a closer look

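Among the 30 genes with the largest difference between BPA alone and E2 alone, 18 also had an E2 response that differed between the in utero exposures, by a test of the difference itself (interaction term in the same limma fit, adjusted p under 0.05), against 15.6% of all units. Both measures use the same arrays and the 30 were chosen on 1 of them, so the count is a description. The difference, response after BPA minus response after vehicle, was above 0 for 5 and below 0 for 13. Some of the 18, such as Cops8 in E2 alone, were not detected in a group, so that their fitted responses depend on the background. Angptl7, detected on every array, had E2 responses of -0.42 after vehicle and -2.81 after BPA, a difference of -2.39 ± 0.13 (SE, adjusted p = 1.1e-05), and A2ml1 had responses of 2.02 and -0.03. Exposure and slide cannot be told apart in this difference either.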

How the results depend on the processing

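The count of 2512 called units stayed within 1.5 times under 10 of 12 other settings, from 2056 without a filter to 3685 with a variance trend and robust estimation. With the 5 arrays alone it was 1339 (664 higher, 675 lower), and with litter number as a fixed replicate block 1538 (721 higher, 817 lower); litter within exposure as a random replicate block gave 2512. Leaving out each array in turn gave 1100 to 1983 called, 538 to 954 higher, 562 to 1029 lower and 252 to 282 at 2-fold. The count at 2-fold was 73 without background correction and 70 in the authors' table. Of 156 named genes called, 88 kept their call and direction in all settings and 65 lost the call in at least 1. For these counts another probe of a gene meant its next brightest only. Dimmer probes of opposite sign were not counted, such as those of H2-D1 (1.52, which passed the test), Igf1r (0.53), Gnas (-0.14) and Wnt5a (0.058). At another probe the difference turned to -0.12 for Aars, -0.59 for H2-K1, 0.27 for Lyz2, -0.084 for Tpm2, 0.11 for Lum, 0.027 for Slc7a11, -0.39 for Slc7a3, -0.51 for Ring1, 0.27 for Pgr and -0.094 for Lif. Over the arrays left out in turn, Lif ran from -0.22 (without replicate 2 of E2 alone) to 0.32, with -0.14 without replicate 1 of BPA alone, and Dnmt1 from -0.063 (without replicate 3 of BPA alone) to 0.23. The causes were not tested. With 2 arrays of E2 alone, small differences near the detection limit could not be resolved.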

Other observations

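Histone genes, chosen as a family once their values had been seen, were higher in BPA alone than in E2 alone for 33 of 49 measured members and lower for none, against 7.33% higher and 8.11% lower of all units. Their median difference was 0.51. Relative to the vehicle group the medians were 0.24 in BPA alone and -0.39 in E2 alone. Histone genes are alike in sequence, so a probe may read several of them.

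Probes without a gene symbol made up 3869 of the units tested, and 540 of these (14.0%) were called, 286 higher and 254 lower in BPA alone. The widest difference of all units was at the unnamed probe ILMN_1251419, which read 13.16, 13.21 and 13.07 in BPA alone, 5.89 and 5.69 in E2 alone and 4.96 and 5.55 in the vehicle group, with BPA with E2 at 13.15, 13.12 and 13.19. All 6 BPA-exposed arrays were thus bright and the 4 vehicle-exposed arrays near background. No gene is given for it here.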
